A study of Mus musculus with 4 samples.

Results

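Endothelial cells line blood vessels, and 10 genes that mark them were followed here in whole mouse testis: Kdr, Flt1, Tek, Tie1, Eng, Cdh5, Pecam1, Vwf, Egfl7 and Emcn. They were matched by symbol and are 10 of the 55335 genes in the deposited count table. All 10 passed the filter on low counts, which left 24116 genes. Poly(A) RNA was sequenced from fresh testes at postnatal day 14 in 2 libraries of genotype Znhit1_KO and 2 of genotype CTRL. ZNHIT1 is a subunit of the complex that places the histone variant H2A.Z in chromatin. The sources used here do not give the strain, the Znhit1 allele, any Cre driver, or whether the CTRL animals carry part of that genotype. The series describes its material as germ cells, whereas the labels give testis and testis cells, and all 10 endothelial genes, with markers of other somatic cells, were detected in all 4 libraries.

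In the testis, blood vessels run through the interstitium between the seminiferous tubules and do not enter them. Endothelial growth and survival are controlled by receptor tyrosine kinases, of which Kdr and Flt1 bind vascular endothelial growth factors and Tek binds angiopoietins, while Tie1 modulates Tek. Endothelial cells are held together by the adhesion proteins encoded by Cdh5 and Pecam1, and many of their genes are known targets of ETS, GATA and SOX transcription factors.

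All 10 are protein-coding genes in GENCODE M21 on the mm10 build, with the receptor genes Kdr (ENSMUSG00000062960.10) on chromosome 5 from 75932827 to 75978458, Flt1 (ENSMUSG00000029648.13) on chromosome 5 from 147561604 to 147726011, Tek (ENSMUSG00000006386.15) on chromosome 4 from 94739289 to 94874976, Tie1 (ENSMUSG00000033191.14) on chromosome 4 from 118471191 to 118490061 and Eng (ENSMUSG00000026814.16) on chromosome 2 from 32646595 to 32682669. The adhesion genes are Cdh5 (ENSMUSG00000031871.9) on chromosome 8 from 104101625 to 104144511 and Pecam1 (ENSMUSG00000020717.19) on chromosome 11 from 106654217 to 106750628. The remaining genes are Vwf (ENSMUSG00000001930.17) on chromosome 6 from 125546774 to 125686679, Egfl7 (ENSMUSG00000026921.19) on chromosome 2 from 26580014 to 26593120 and Emcn (ENSMUSG00000054690.17) on chromosome 3 from 137341067 to 137432185. Kdr and Flt1 share a chromosome, as do Tek and Tie1, and Eng and Egfl7.

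Because ETS factors are widely tied to endothelial promoters, the RefSeq promoter windows (250 bases before to 50 after a transcription start, build GRCm38.p6) were searched for short core motifs. Windows were found for 7 of the 10 genes: Kdr, Flt1, Tek, Tie1, Eng, Egfl7 and Emcn. These genes had 9 windows in all, since Egfl7 has 3 starts. An ETS core, AGGAAG or CGGAAG on either strand, was in 6 of the 9 windows (1 each of Flt1, Tie1, Eng and Emcn and 2 of Egfl7), against 46.5% of 32851 promoter windows of the same length. The GATA core AGATAA, on either strand, was in 1 window (Tek), against 11.2%, and the SOX core ACAAAG in 3 (Egfl7, Eng and Tek), against 18.7%. Stretches upstream of a RefSeq start that hold ETS matches are printed here because most of these genes have one. They have each match in capitals and are read 5′ to 3′ on the gene's strand. They lie at chr5:147726052-147726146 on the minus strand (Flt1), chr4:118490040-118490089 on the minus strand (Tie1), chr2:32646525-32646594 on the plus strand (Eng), chr2:26580983-26581052 on the plus strand (the first Egfl7 start) and chr3:137340898-137340997 on the plus strand (Emcn). By the gene positions given above, the Egfl7 stretch and part of the Tie1 stretch lie inside the gene. Further matches in the Egfl7 and Tie1 windows are not printed. A match describes letters only and shows no binding.
Flt1: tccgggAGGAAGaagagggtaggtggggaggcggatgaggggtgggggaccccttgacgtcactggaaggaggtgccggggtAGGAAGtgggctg
Tie1: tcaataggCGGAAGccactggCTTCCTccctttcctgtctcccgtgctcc
Eng: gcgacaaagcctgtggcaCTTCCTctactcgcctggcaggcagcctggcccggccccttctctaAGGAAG
Egfl7: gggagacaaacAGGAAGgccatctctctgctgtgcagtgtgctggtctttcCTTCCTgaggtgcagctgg
Emcn: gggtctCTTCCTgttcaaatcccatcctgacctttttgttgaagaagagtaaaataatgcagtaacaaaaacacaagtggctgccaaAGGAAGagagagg

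The deposited count values summed to between 129531714 and 157790457 per library. They exceed the number of reads stated and were treated as estimated counts, so counting precision cannot be read from them. Znhit1 itself stood at 55.4 and 90.2 TPM (the authors' values, scaled per transcript length and library total) in CTRL replicates 1 and 2 and at 8.0 and 5.24 in Znhit1_KO replicates 1 and 2. Adjusted for 24116 genes, edgeR's quasi-likelihood test called 0 genes (0%), with a lowest adjusted p of 0.264. Znhit1 itself was not called, at a log2 change of -3.22 (edgeR adjusted p = 0.264). An unadjusted p under 0.05 was reached by 2590 genes (10.7%), 2.99% higher and 7.75% lower. DESeq2 called 1024 genes (4.01% of those it adjusted), limma-voom called 0, and the authors' deposited table marks 882 (3.5%). That table leaves unmarked 145 of the 1027 genes to which it gives an adjusted p under 0.05, and every gene it marks has a log2 change of at least 1 in size. The labels speak of independent biological replicates but not of how many animals each library holds.

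None of the 10 endothelial genes passed the test. With counts scaled by TMM, 9 of them had a positive log2 change in Znhit1_KO. With counts scaled to Sertoli cell markers only 4 did, on a scale where the median of all genes was -0.32. Over all genes tested, 53.1% had a positive change with TMM. The median log2 change of the 10 genes was 0.26, beside 0.031 over all genes tested. The changes ran from -0.13 for Emcn to 0.53 for Vwf. The edgeR test called 0 of the 10 at an adjusted p of 0.05 and 0 at an unadjusted p under 0.05, beside 0% and 10.7% of all genes. DESeq2 and limma-voom also called 0, beside 4.01% and 0% of all genes. The authors' deposited table marks 0 of the 10, beside 3.5% of all its genes. The lowest edgeR p was 0.159, for Kdr, with an adjusted p of 0.617. With Sertoli scaling the median of the 10 genes was -0.09, beside -0.32 over all genes. Without Znhit1_KO replicate 2 it was 0.16. In these whole-tissue libraries, a difference in the number of endothelial cells and one in the RNA per endothelial cell cannot be told apart.

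**Figure D1:**
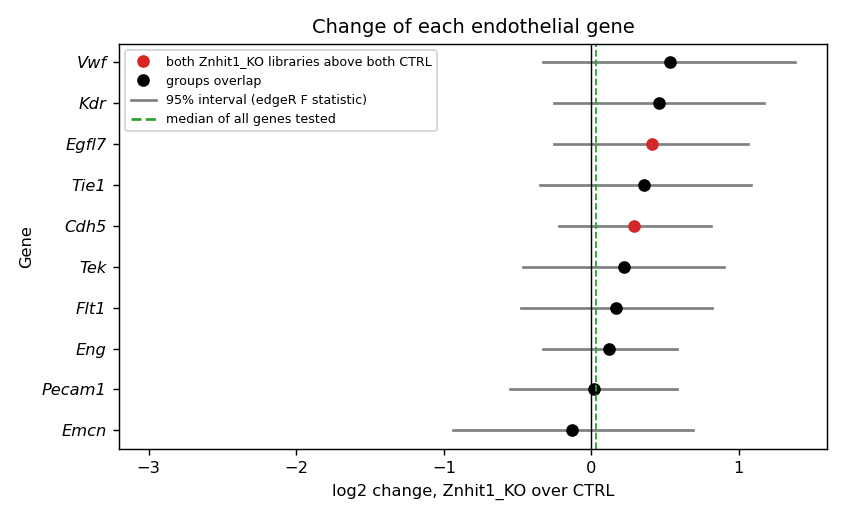
Log2 change of each endothelial gene, Znhit1_KO over CTRL (points, edgeR with TMM scaling, 2 libraries a group), with its 95% interval (bars), the zero line, and the median of all genes tested (dashed). All 10 intervals include 0. With this scaling 9 of the 10 points lie above 0, against 4 with scaling to Sertoli markers, where the median of all genes is -0.32.

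By level per transcript length, the 10 genes fell into a higher and a lower range. Eng was highest at a mean of 25.5 TPM over the 4 libraries, followed by Egfl7 at 19.4, Cdh5 at 18.8 and Pecam1 at 12.6. Egfl7 and Cdh5 were not separated, since their ranges of 15.0 to 23.8 and 16.5 to 23.8 TPM nearly coincided. The other 6 genes lay lower, with Kdr at 5.86 TPM, Vwf at 5.34, Tie1 at 4.36, Tek at 3.29, Flt1 at 3.04 and Emcn at 2.53. No overlap in range was seen between Cdh5 and Pecam1 or between Pecam1 and Kdr. Every other pair of neighbours in this order overlapped in range. The 10 genes together summed to 89.2 and 92.1 TPM in CTRL replicates 1 and 2 and to 109.2 and 112.6 TPM in Znhit1_KO replicates 1 and 2. Both Znhit1_KO sums were above both CTRL sums on this scale.

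**Figure D2:**
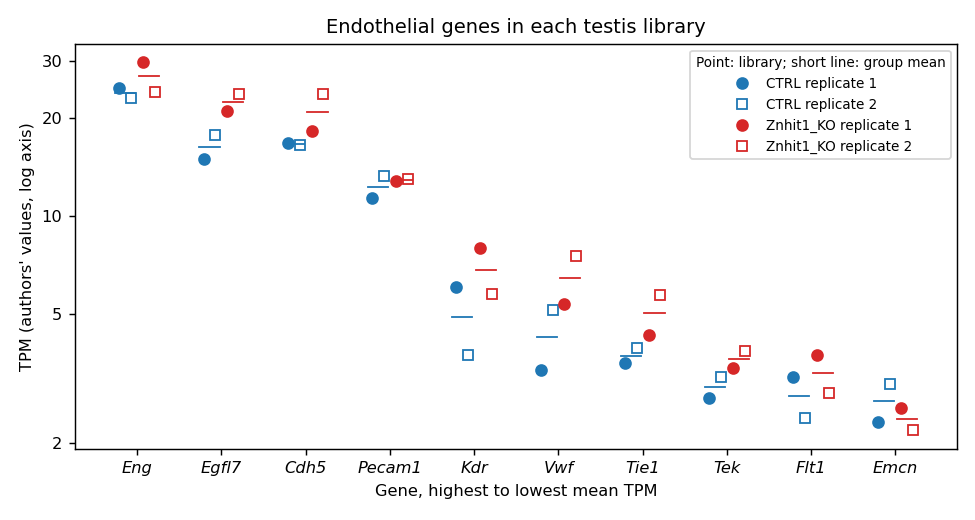
TPM of each endothelial gene (log axis) in each library, ordered by mean level; circles are replicate 1, squares replicate 2, and short lines the group means. Eng, Egfl7, Cdh5 and Pecam1 lie between 11.4 and 29.8 TPM, and the other 6 genes between 2.18 and 7.94 TPM.

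The growth factor receptors Kdr and Flt1 were higher in replicate 1 than in replicate 2 of both groups. Kdr, the main signalling receptor for vascular endothelial growth factor A, stood at 6.05 and 3.73 TPM in CTRL replicates 1 and 2 and at 7.94 and 5.73 TPM in Znhit1_KO replicates 1 and 2. Its groups overlapped, because Znhit1_KO replicate 2 lay below CTRL replicate 1. The log2 change of Kdr was 0.46 (SE 0.283, 95% interval -0.25 to 1.17, edgeR adjusted p = 0.617). It was 0.74 without CTRL replicate 1, 0.23 without CTRL replicate 2 and 0.18 without Znhit1_KO replicate 1. Flt1, which binds the same ligand tightly and signals weakly, stood at 3.20 and 2.39 TPM in CTRL and at 3.73 and 2.85 TPM in Znhit1_KO, in the same order. Its groups also overlapped, and the log2 change was 0.17 (SE 0.257, 95% interval -0.48 to 0.82, edgeR adjusted p = 0.852), turning to -0.09 without Znhit1_KO replicate 1. Within a library, Kdr exceeded Flt1 by a TPM ratio of 1.89 and 1.56 in CTRL and 2.13 and 2.01 in Znhit1_KO. This ratio was above 1 in all 4 libraries, and both Znhit1_KO values lay above both CTRL values. The groups overlapped for every other TPM ratio computed, Kdr over Cdh5 and Tek over Tie1 included. How often ratios of other gene pairs separate in this way was not tested.

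The angiopoietin receptors Tek and Tie1 were each lowest in CTRL replicate 1 and highest in Znhit1_KO replicate 2. Tek, the angiopoietin receptor proper, stood at 2.75 and 3.18 TPM in CTRL replicates 1 and 2 and at 3.39 and 3.84 TPM in Znhit1_KO replicates 1 and 2. Its related receptor Tie1, which has no well-defined ligand of its own, stood at 3.51 and 3.91 TPM in CTRL and at 4.30 and 5.72 TPM in Znhit1_KO. On the TPM scale both Znhit1_KO libraries were above both CTRL libraries for both genes, whereas in TMM-scaled CPM (counts scaled to library size) the groups overlapped. The log2 changes were 0.22 for Tek (SE 0.27, edgeR adjusted p = 0.814) and 0.36 for Tie1 (SE 0.285, edgeR adjusted p = 0.693). Single libraries moved both: Tek ran from 0.02 without CTRL replicate 1 to 0.45 without CTRL replicate 2, and Tie1 from 0.07 without Znhit1_KO replicate 2 to 0.55 without Znhit1_KO replicate 1. The TPM ratio of Tek to Tie1 was 0.784 and 0.814 in CTRL replicates 1 and 2, against 0.788 and 0.672 in the Znhit1_KO libraries.

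Endoglin, encoded by Eng, is a co-receptor for ligands of the transforming growth factor beta and bone morphogenetic protein families. Eng stood at 24.8 and 23.1 TPM in CTRL replicates 1 and 2 and at 29.8 and 24.2 TPM in Znhit1_KO replicates 1 and 2. Znhit1_KO replicate 1 was high and the other 3 libraries lay close together, so the groups overlapped. The log2 change was 0.12 (SE 0.18, 95% interval -0.33 to 0.58, edgeR adjusted p = 0.848), and it was -0.06 without Znhit1_KO replicate 1. Eng overlaps Fpgs on the opposite strand, whose highest count was 7596, and the sources used here do not say whether the libraries keep strand.

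Of the junction genes, Cdh5 had higher values in both Znhit1_KO libraries and Pecam1 had almost the same mean in both groups. Cdh5 encodes VE-cadherin, the adhesion molecule of endothelial adherens junctions, and stood at 16.8 and 16.5 TPM in CTRL replicates 1 and 2 and at 18.3 and 23.8 TPM in Znhit1_KO replicates 1 and 2. The groups did not overlap, and most of the difference lay in Znhit1_KO replicate 2. The log2 change of Cdh5 was 0.29 (SE 0.205, 95% interval -0.22 to 0.81, edgeR adjusted p = 0.657), moving to 0.05 without Znhit1_KO replicate 2 and standing at 0.45 without Znhit1_KO replicate 1. Pecam1, an adhesion molecule at endothelial contacts that platelets and leukocytes also carry, stood at 11.4 and 13.2 TPM in CTRL and at 12.8 and 13.0 TPM in Znhit1_KO. Both Znhit1_KO values lay between the CTRL values. Its log2 change was 0.02 (SE 0.223, 95% interval -0.55 to 0.58, edgeR adjusted p = 0.989), so folds from 0.685 to 1.49 lie within the interval.

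The genes of secreted and surface proteins held both the highest and the lowest log2 change of the 10, with overlapping intervals. Vwf, the clotting factor that endothelial cells store and release, stood at 3.35 and 5.14 TPM in CTRL replicates 1 and 2 and at 5.36 and 7.51 TPM in Znhit1_KO replicates 1 and 2. CTRL replicate 1 was low, Znhit1_KO replicate 2 was high, and the other 2 libraries were nearly level. The log2 change of Vwf was the largest of the 10 genes, at 0.53 (SE 0.338, 95% interval -0.33 to 1.38, edgeR adjusted p = 0.632), and it ran from 0.17 without CTRL replicate 1 and 0.25 without Znhit1_KO replicate 2 to 1.00 without CTRL replicate 2. Egfl7, a secreted protein of the vessel wall, stood at 15.0 and 17.7 TPM in CTRL and at 21.0 and 23.8 TPM in Znhit1_KO. Its groups did not overlap in TPM or in CPM. The log2 change of Egfl7 was 0.41 (SE 0.259, 95% interval -0.25 to 1.06, edgeR adjusted p = 0.63), with values between 0.20 (CTRL replicate 1 left out) and 0.65 (CTRL replicate 2 left out) when 1 library was dropped. In the annotation Egfl7 overlaps the protein-coding genes Agpat2, on the opposite strand with a highest count of 406, and Gm20532, on the same strand, whose count was not analysed here. Emcn, a sialomucin of capillary and venous endothelium, was the 1 gene with a negative log2 change, at -0.13 (SE 0.322, edgeR adjusted p = 0.921), or 0.12 without CTRL replicate 2. Emcn stood at 2.32 and 3.04 TPM in CTRL and at 2.56 and 2.18 TPM in Znhit1_KO, with overlapping groups.

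In TMM-scaled CPM, the groups did not overlap for 2 of the 10 genes (Cdh5 and Egfl7), with Znhit1_KO above, beside 21.8% of genes. For Cdh5, CTRL replicate 2 at 28.4 CPM lay just below Znhit1_KO replicate 1 at 28.6 CPM. Znhit1_KO lay below for 0 of the 10, beside 21.3% of all genes. In the authors' TPM the count above was 5 (Cdh5, Egfl7, Tek, Tie1 and Vwf), beside 22.8% of genes. With Sertoli scaling it was 0, beside 5.17% of all genes, while Pecam1, Emcn and Eng lay below both CTRL libraries, beside 45.2% of all genes lower on that scale. The count therefore moved with the scale chosen.

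The genes also differed by replicate number. Of the 10 genes, 7 were higher in replicate 2 than in replicate 1 within both groups (Pecam1, Cdh5, Tek, Tie1, Egfl7, Vwf and Emcn), 2 were higher in replicate 1 within both groups (Kdr and Flt1), and Eng was mixed. For Vwf, replicate 2 exceeded replicate 1 by 0.82 in CTRL and 0.46 in Znhit1_KO on the log2 CPM scale. For Kdr the same differences were -0.51 and -0.45. Red cell markers also followed the replicate number: the globin gene Hbb-bs stood at 4.77 and 36.2 CPM in CTRL replicates 1 and 2 and at 6.25 and 74.7 CPM in Znhit1_KO replicates 1 and 2. Red cells were not alone in this. The macrophage, Leydig and pachytene lists were also higher on average in replicate 2 of both groups. The Sertoli list was higher in replicate 1 of both groups, and the pericyte, platelet and myoid lists were mixed. Across all genes, deviations from the group means correlated at 0.421 between replicate 1 of both groups. The part of blood content, or of other cells, in the endothelial values was not tested.

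**Figure D3:**
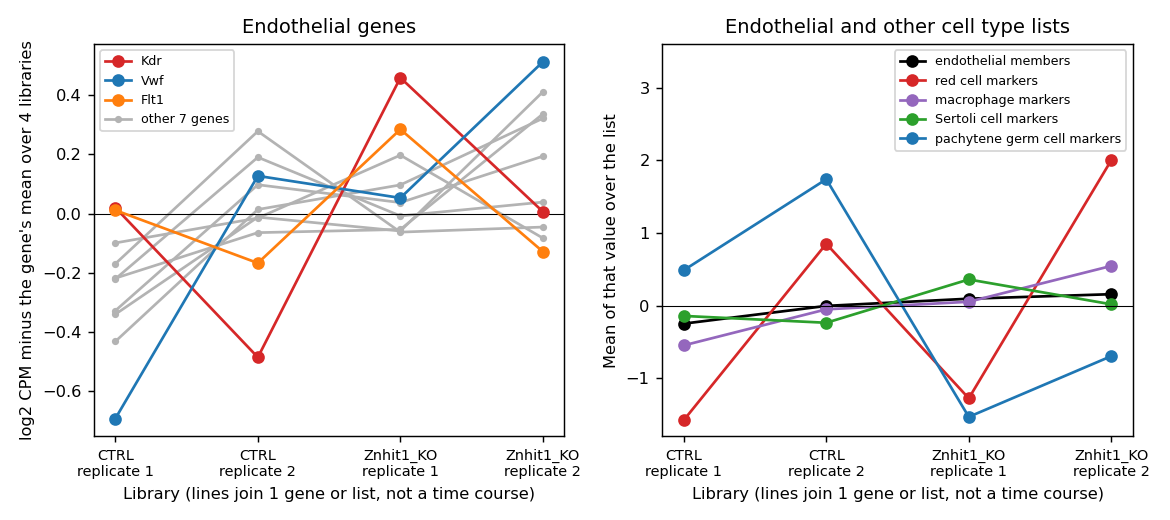
Left, log2 CPM of each endothelial gene in each library minus its mean over the 4 libraries; right, the mean of that value over the endothelial genes and 4 marker lists of other cells. Kdr and Flt1 peak in Znhit1_KO replicate 1, Vwf in Znhit1_KO replicate 2, and the red cell list is at 0.851 and 2.00 in the replicate 2 libraries against -1.58 and -1.28 in the replicate 1 libraries.

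The vascular ligands showed no called gene. Of 22 listed ligand genes 19 were tested. EdgeR called 0 higher and 0 lower, and DESeq2 called 0, beside 0% and 4.01% of all genes. The median log2 change was 0.30, with 15 positive. Vegfa, the main ligand of Kdr and Flt1, stood at 14.6 and 8.0 CPM in CTRL replicates 1 and 2 and at 23.5 and 14.3 CPM in Znhit1_KO replicates 1 and 2. It had the replicate order of Kdr and Flt1, higher in replicate 1 of both groups, with overlapping groups and a log2 change of 0.75 (SE 0.391). The most abundant ligands by CPM were the Notch ligand gene Jag2 (log2 change -0.14, SE 0.153) and Tgfb3 (0.33, SE 0.286) and Tgfb1 (0.61, SE 0.18) of the transforming growth factor beta family. The extremes were Vegfd, a ligand of lymphatic and blood vessel receptors (1.75, SE 0.638), and Angpt1, the activating ligand of Tek (-0.28, SE 0.463, at most 0.563 CPM). At an unadjusted p under 0.05 there were 3 higher ligands, Tgfb1, Vegfd and the chemokine gene Cxcl12 (0.67, SE 0.205), beside 2.99% of all genes. Vegfa and Cxcl12 were named after their values were seen. The ligand median was 0.15 without Znhit1_KO replicate 1 and also without Znhit1_KO replicate 2. With Sertoli scaling it was -0.07, beside -0.32 over all genes.

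Other endothelial receptors and junction genes numbered 42, all tested, with 0 called higher and 0 lower by edgeR and 1 (Stab2) called by DESeq2, beside 4.01% of all genes. Their median log2 change was 0.18 with 34 positive. Under Sertoli scaling it was -0.18 with 14 positive, beside a median of -0.32 over all genes. Both Znhit1_KO libraries were above both CTRL libraries for 11 of the 42 (26.2%, beside 21.8% of all genes). They were below for 2 (4.76%, beside 21.3% of all genes). The most abundant were Notch1 (log2 change 0.36, SE 0.383), the bone morphogenetic protein receptor gene Bmpr2 (0.11, SE 0.226) and the junction adhesion gene Jam2 (0.45, SE 0.257). Their mean TPM over the 4 libraries was 58.3, 34.9 and 77.8, beside 18.8 for Cdh5. The part of other testis cells in the values of this list was not tested. The leukocyte adhesion gene Sele was near the floor of detection, at 0.171 CPM or less. Stab2, a scavenger receptor of sinusoidal endothelium, stood at 25.6 and 10.8 CPM in CTRL replicates 1 and 2 and at 7.60 and 5.53 CPM in Znhit1_KO replicates 1 and 2. The log2 change of Stab2 was -1.47 (SE 0.455, edgeR adjusted p = 0.369), and the authors' deposited table marks it lower, with an adjusted p of 0.0172. Podxl, a sialomucin of the endothelial surface that other cells also make, had a log2 change of 0.76 (SE 0.192, edgeR adjusted p = 0.319). Podxl and Stab2 were the 2 genes of this list at an unadjusted p under 0.05, beside 10.7% of all genes, and Podxl was named after its values were seen. Leaving out CTRL replicate 1, or Znhit1_KO replicate 2, gave a median of 0.11, and leaving out Znhit1_KO replicate 1 gave 0.12.

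Transcription factors known from endothelial cells were nearly all on the positive side with TMM scaling, but not with Sertoli scaling. Of 25 tested of 26 listed, 24 had a positive log2 change with a median of 0.37. Under Sertoli scaling 13 were positive with a median of 0.03, beside -0.32 over all genes. Both Znhit1_KO libraries were above both CTRL libraries for 16 of the 25 (64%), beside 21.8% of all genes, and below for 0, beside 21.3%. Such separation was not particular to this list. The share above was 85.7% for Sertoli, 50% for Leydig, 42.9% for macrophage, 40% for platelet and 30% for pericyte markers. It was 0% for red cell, myoid and pachytene markers. EdgeR called 0 of the 25 and DESeq2 1 (Hhex), beside 4.01% of all genes. At an unadjusted p under 0.05 there were 2, Hhex and Ets2, both higher, beside 2.99% of all genes. Hhex, a homeobox factor of early endothelium and blood progenitors, stood at 5.95 and 6.05 CPM in CTRL replicates 1 and 2 and at 10.7 and 10.4 CPM in Znhit1_KO replicates 1 and 2. The log2 change of Hhex was 0.81 (SE 0.217, edgeR adjusted p = 0.325), and DESeq2 gave an adjusted p of 0.0423. The authors' deposited table gives Hhex an adjusted p of 0.0418 and does not mark it. Hhex had close replicates in each group and a gap between the groups. The ETS factor gene Ets2, named after its values were seen, had a log2 change of 0.52 (SE 0.177, edgeR adjusted p = 0.412). The endothelial ETS factor gene Erg had a log2 change of 0.19 (SE 0.195) and its relative Fli1 one of 0.43 (SE 0.299), both also named after their values were seen. The most abundant factors were the hypoxia-responsive Epas1 (0.23, SE 0.187), Foxo1 (0.02, SE 0.212) and the venous factor gene Nr2f2 (0.22, SE 0.172). Their mean TPM was 128, 38.3 and 33.0, beside 18.8 for Cdh5. The part of other testis cells in the values of the factors was not tested. The lowest change was that of the Notch target Heyl (-0.09, SE 0.385).

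**Figure D4:**
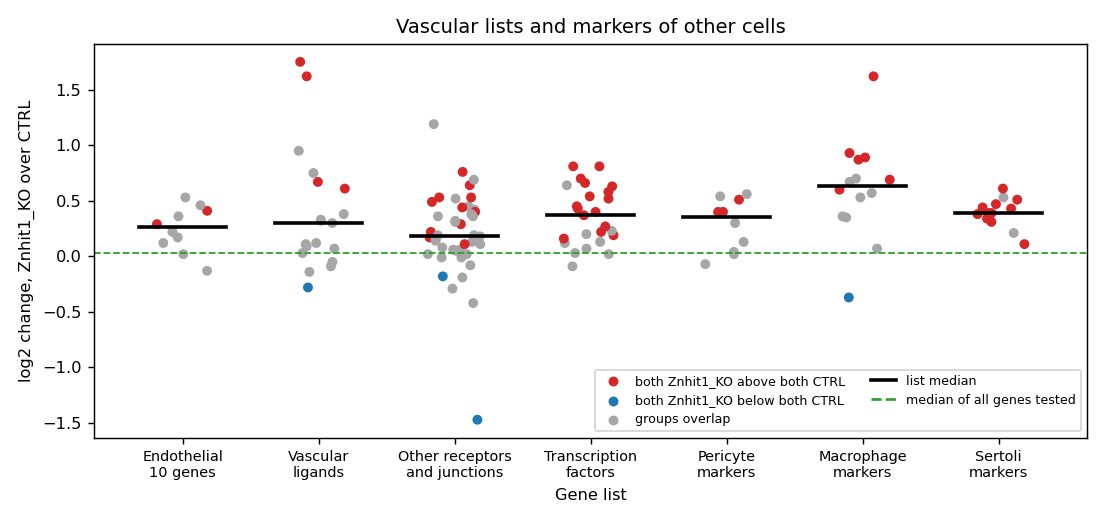
Log2 change of each tested gene (points, edgeR with TMM scaling), by list, with the list median (black bar) and the median of all genes tested (dashed). The medians are 0.26 for the 10 endothelial genes and 0.30, 0.18 and 0.37 for the 3 vascular lists. They are 0.35, 0.63 and 0.39 for pericyte, macrophage and Sertoli markers. With Sertoli scaling, not drawn, the medians of the 10 genes and of the ligand and receptor lists are negative. The median of all genes on that scale is lower, at -0.32.

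Markers of other testis cells had medians on either side of that of the endothelial genes. EdgeR called 0 genes in each of these 8 lists, beside 0% of all genes. DESeq2 called 9 of 12 pachytene and 2 of 10 Leydig genes, beside 4.01% of all genes. An unadjusted edgeR p under 0.05 was reached by 11 pachytene genes, all lower (beside 7.75% of all genes), and by 4 Sertoli, 2 Leydig, 1 pericyte and 1 macrophage gene, all higher (beside 2.99%). The medians were 0.35 over 10 pericyte genes, 0.39 over 14 Sertoli genes, 0.37 over 10 Leydig genes, 0.63 over 14 macrophage genes and 0.98 over 5 red cell genes, 0.00 over 8 peritubular myoid genes, 0.24 over 5 platelet genes and -2.26 over 12 pachytene germ cell genes. Leaving out 1 library at a time, the red cell median ran from -1.73 to 3.08 and the platelet median from -0.43 to 0.40, both negative without Znhit1_KO replicate 2 alone. The macrophage median ran from 0.15 without Znhit1_KO replicate 2 to 1.00 without CTRL replicate 2. The Sertoli median, on whose genes the Sertoli scaling rests, ran from 0.18 without Znhit1_KO replicate 1 to 0.47 without Znhit1_KO replicate 2. The other ranges were 0.20 to 0.30 for pericyte, 0.26 to 0.54 for Leydig, -0.11 to 0.19 for myoid and -2.85 to -1.54 for pachytene markers. The Sertoli list summed to 6804 and 7105 CPM in CTRL replicates 1 and 2, against 9636 and 8252 CPM in Znhit1_KO. The pachytene list summed to 1389 and 2868 CPM in CTRL, against 696.8 and 1048 CPM in Znhit1_KO. The pachytene sum was lower in both Znhit1_KO libraries. All 12 pachytene genes were also lower in both, beside 21.3% of all genes. The part of this difference in germ cell transcripts in the endothelial values was not tested. The 5 tested platelet genes summed to between 4.31 and 6.64 CPM and the platelet gene Ppbp, which did not pass the filter and was named after its counts were seen, had a count of 0 in 3 libraries and 8 in Znhit1_KO replicate 1. Macrophage markers summed to 62.1 and 79.8 CPM in CTRL and 73.8 and 109.5 CPM in Znhit1_KO. In CPM Pecam1, which macrophages share, was likewise lowest in CTRL replicate 1 and next lowest in Znhit1_KO replicate 1. Its highest value lay in CTRL replicate 2, whereas the macrophage sum peaked in Znhit1_KO replicate 2. The part of macrophages in the Pecam1 values was not tested.

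The 5 genes closest in pattern to the mean of the 10 endothelial genes were Amotl2, Cavin3, Rab35, Bend3 and Phf13. Closeness was the Euclidean distance over 4 libraries between log2 CPM values centred on each gene's mean, among 11287 genes with a mean of at least 5 CPM. The distances were 0.0128 for Amotl2, 0.0148 for Cavin3, 0.0193 for Rab35, 0.0255 for Bend3 and 0.0271 for Phf13. The endothelial genes themselves lay farther from their own mean, from 0.147 for Tek to 0.679 for Kdr. With only 4 libraries many genes share such a profile, and no common function can be read from it.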

How the data were processed

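RNA from 4 whole mouse testis libraries (postnatal day 14, 2 a group) was analysed from 2 tables of the whole series. The mm10 build and the tools StringTie 2.2.1, HISAT2 2.2.1, DESeq2 1.38.3 and cutadapt 2.5 are named per the submitters' processing notes. The sources used here do not give the counting method, annotation or settings. The authors' deposited count table holds estimated counts as whole numbers for 55335 genes. The authors' deposited comparison table holds TPM, p-values, log2 changes with their standard errors and test statistics (scores), and a base mean (signal) for 25236 genes.

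Counts were tested with edgeR 4.0.16 (quasi-likelihood F-test, TMM, filterByExpr by group, Benjamini-Hochberg at 0.05 over 24116 genes) in R 4.3.3; standard errors and 95% intervals came from the F statistic. Log2 CPM used a prior count of 2. DESeq2 1.42.0, limma 3.58.1 (voom), other scalings, no filter, a replicate block and each library left out were alternatives. Sertoli scaling used the summed counts of the 14 Sertoli markers. Clu made up much of that sum, with 3582 of 6804 CPM in CTRL replicate 1. The fits were tested on simulated data. Counts were identical for 2.89% of detected genes within the CTRL pair and 3.00% within the Znhit1_KO pair, so no library was taken as a duplicate. Gene positions came from GENCODE M21 (mm10), which held 55154 of the 55335 identifiers, and promoters from RefSeq (GRCm38.p6).

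The 10 genes and the 11 other lists were chosen with earlier results of these data known. Named were all 10 genes, Znhit1, and of each vascular list the 3 of highest mean CPM and the highest and lowest log2 change. The other lists are given as counts, medians and sums, apart from Hbb-bs, which the same rule names. Figf and Eltd1 were listed beside Vegfd and Adgrl4, of which they are older symbols, and are not counted. The 5 genes of like pattern exclude clone and predicted gene names. The 10 genes had no list test.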

Additional observations from a re-analysis of the deposited data

How the results depend on the processing

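With 2 libraries a group, the intervals of the 10 endothelial genes reached from 0.522-fold to 2.6-fold. Moderate differences in either direction were therefore not detectable here. Large ones were not called by edgeR either, since Znhit1 itself, at a log2 change of -3.22, had an edgeR adjusted p of 0.264. The count of endothelial genes called was 0 under all 11 planned count alternatives, replicate block included. The median of the 10 genes lay between 0.25 and 0.29 with DESeq2, limma-voom, DESeq2 size factors, total counts, no filter or the block, was 0.27 from the authors' TPM with a pseudocount of 1, and ran from 0.16 to 0.31 with 1 library left out. With Sertoli list scaling it was -0.09, where the median of all genes was -0.32. Sertoli scaling also turned the log2 changes of Cdh5 to -0.04, Eng to -0.24, Flt1 to -0.20, Pecam1 to -0.33 and Tek to -0.13. With 1 library left out, Emcn ran from -0.34 to 0.12 (positive without CTRL replicate 2), Pecam1 from -0.18 to 0.24 (-0.18 without CTRL replicate 1 and -0.04 without Znhit1_KO replicate 2), Eng from -0.06 to 0.22 and Flt1 from -0.09 to 0.32 (both negative without Znhit1_KO replicate 1). Under Sertoli scaling the median over all genes moved as well, from 0.03 to -0.32. The cause of the reversals with 1 library left out was not tested. The count of all genes called was 1024 with DESeq2, 2737 with the replicate block and, with 1 library left out, from 0 to 754 (without CTRL replicate 1). Of 86 genes of the 3 vascular lists, DESeq2 called 2 (Hhex and Stab2; 2.33%, beside 4.01% of all genes) and the block 13 (15.1%, beside 11.3%). The block leaves 1 residual degree of freedom, and the labels do not say that equal replicate numbers pair the libraries; deviations from the group means correlated at 0.421 across genes between replicate 1 of both groups. With the block, the lowest adjusted p of the 10 genes was 0.0522, for Vwf. At an unadjusted p under 0.05 the block gave 4 of the 10 (Vwf, Kdr, Egfl7 and Cdh5), against 0 in the main fit. The share of all genes at that level with the block is not given here. Both Znhit1_KO libraries were above both CTRL libraries for 5 of the 10 genes in TPM (22.8% of all genes) and in total count CPM (22.3%) and for 0 with Sertoli scaling (5.17%), alternatives chosen after seeing the data.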
